A study of Mus musculus with 8 samples.

Results

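AP-1 is a family of transcription factors that bind DNA as pairs held together by a basic leucine zipper. Fos proteins pair with Jun proteins and not with themselves, Jun proteins can pair with each other, and BATF proteins pair with Jun proteins and bind beside IRF4 or IRF8 at composite sites. Fos and Jun genes are classic immediate early genes of lymphocytes, switched on within minutes of antigen receptor, protein kinase C or Toll-like receptor signals. The 10 genes described here, Fos, Fosb, Fosl1, Fosl2, Jun, Junb, Jund, Batf, Batf3 and Atf3, were taken by mouse symbol from 37583 gene identifiers, and all 10 were found.

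RNA was sequenced from splenic B cells of C57BL/6 mice (strain label B6), with no genetic change named, in 8 libraries. The TLR group (Bregs-TLR, 2 libraries) had 3 days with CpG ODN1668, an oligonucleotide ligand of TLR9, and in the last 5 hours also LPS, which TLR4 senses, PMA, which switches on protein kinase C, and ionomycin, which lets calcium into the cell. The CpG group (Bregs-CpG, 3 libraries) had CpG ODN1668 for 3 days and none of the other agents. The naive group (3 libraries) was labelled Naive B cells. The labels do not say that replicates were different animals or cultures. The p-values therefore cover the spread of these libraries, which may be technical. No culture is named for the naive cells, so effects of culture and of CpG cannot be told apart.

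Gene counts summed to between 15804311 and 20069272 per library, and values are given as CPM, the count scaled to a common library total. Of the 13964 genes tested, all 10 members passed the filter on low counts, Fosl1 only through the TLR libraries and Batf3 only with the naive ones. Summed markers of B cells stood at 2155 and 2240 CPM in TLR libraries, 7378 to 11390 CPM in CpG libraries and 9356 to 9946 CPM in naive libraries, and all 8 of those markers were lower in TLR than in either other group. The macrophage and monocyte markers summed to 14.6 and 20.0 CPM in TLR, 19.2 to 42.1 CPM in CpG, and 1312, 317 and 169 CPM in naive replicates 1 to 3. In bulk RNA, fewer cells of a type and less RNA per cell cannot be told apart. Replicate 1 of each group has file prefix RCa1 and every other library RCa18 (the labels leave these prefixes unexplained). The share of multiply aligned reads was 37.46% to 50.23% in the 3 RCa1 libraries and 14.68% to 21.53% in the 5 RCa18 libraries. With the prefix as a term in the fit, no call of a member changed.

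The members exchanged places between the groups. Naive libraries held Fos and Fosb messages beside those of the Jun genes, and almost no Atf3. After 3 days with CpG, Fos and Fosb were lower and Batf and Atf3 higher. After the final 5 hours Junb and Fosl2 were higher than with CpG alone, Batf was higher still, and Fosl1 had its first counts above a trace. Jun and Jund had no called change in the fit of all 8 libraries by group alone. With a term for replicate number added, Jun was called higher against naive in CpG and in TLR. Fos and Batf lie on chromosome 12, Batf3 and Atf3 on chromosome 1, Junb and Jund on chromosome 8, Jun on chromosome 4, Fosl2 on chromosome 5, Fosb on chromosome 7 and Fosl1 on chromosome 19.

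**Figure D1:**
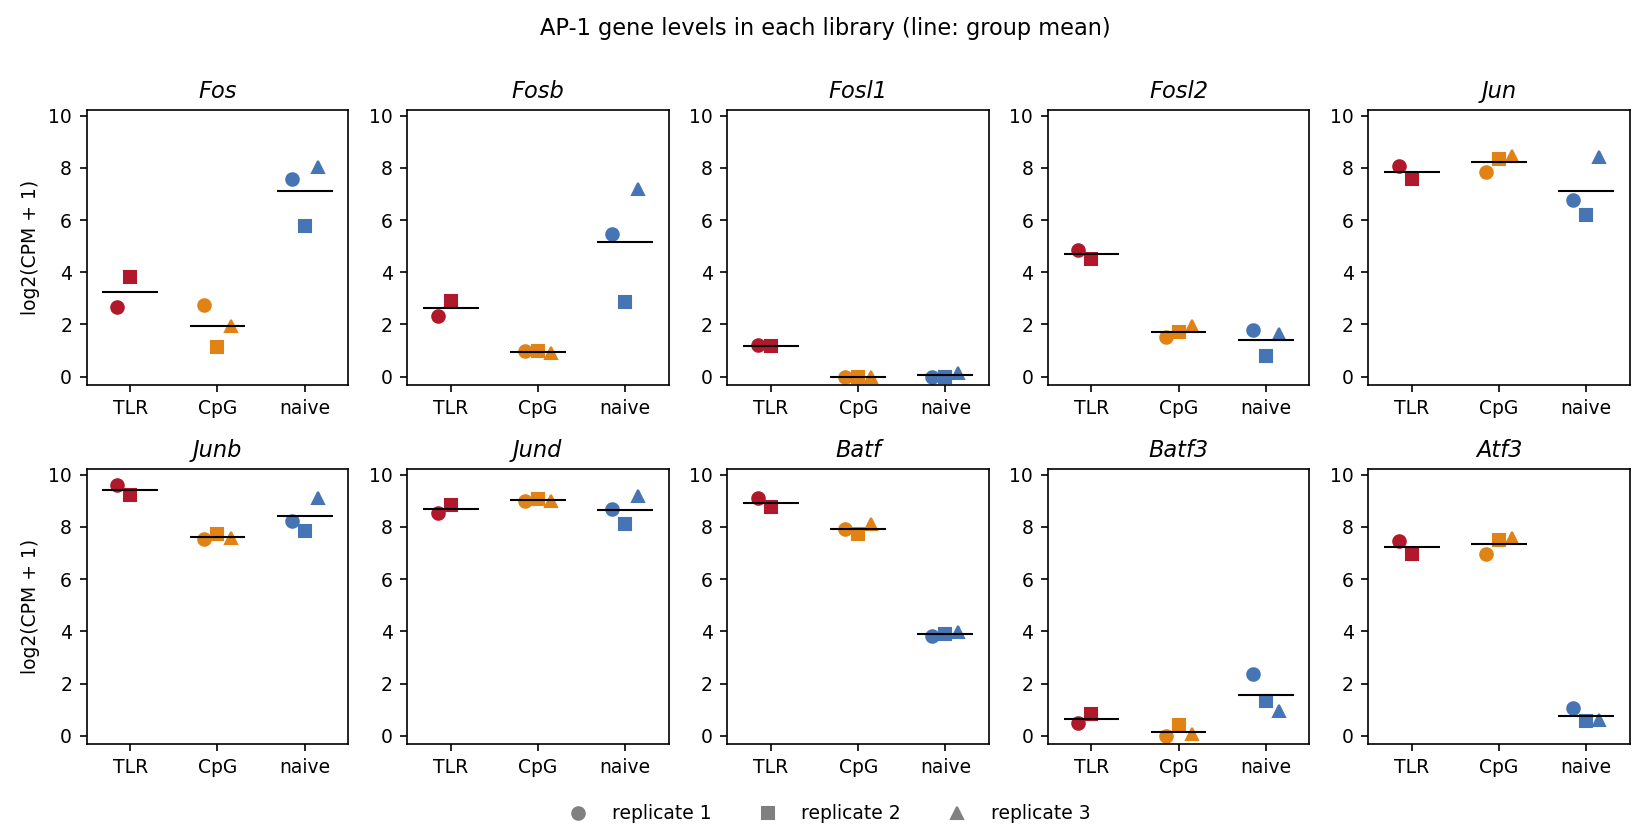
Level of each AP-1 gene as log2(CPM + 1) in every library, by group, with the replicate number as the marker shape and the mean of the log2 values as a line. Batf and Atf3 sit far above the naive libraries in every TLR and CpG library, Fos far below them, and Fosl2 and Junb are highest in the 2 TLR libraries.

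The promoters of 4 members that stand for these patterns are shown, each from 250 bases before to 50 bases after the start of the RefSeq transcript (build GRCm38.p6, read along the strand of the gene). Capitals mark CRE half-sites (TGACG) and the variants TGACATCA and TTACGTCA of the full CRE, the element bound by ATF and some Jun pairs. Fos lies at chr12:85473640-85473939 (plus strand), Jun at chr4:95052173-95052472 (minus strand), Batf at chr12:85686470-85686769 (plus strand) and Atf3 at chr1:191183284-191183583 (minus strand).
Fos: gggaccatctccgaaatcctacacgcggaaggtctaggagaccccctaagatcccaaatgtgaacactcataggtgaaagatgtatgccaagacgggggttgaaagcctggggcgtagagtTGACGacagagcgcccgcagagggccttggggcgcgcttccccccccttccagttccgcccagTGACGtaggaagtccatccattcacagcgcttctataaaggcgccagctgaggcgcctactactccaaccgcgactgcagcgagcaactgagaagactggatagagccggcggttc
Jun: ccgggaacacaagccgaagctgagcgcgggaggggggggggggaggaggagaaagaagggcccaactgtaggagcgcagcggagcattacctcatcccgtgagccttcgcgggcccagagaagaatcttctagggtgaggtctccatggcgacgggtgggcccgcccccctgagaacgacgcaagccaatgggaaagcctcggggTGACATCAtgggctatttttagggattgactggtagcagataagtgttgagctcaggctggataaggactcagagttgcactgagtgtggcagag
Batf: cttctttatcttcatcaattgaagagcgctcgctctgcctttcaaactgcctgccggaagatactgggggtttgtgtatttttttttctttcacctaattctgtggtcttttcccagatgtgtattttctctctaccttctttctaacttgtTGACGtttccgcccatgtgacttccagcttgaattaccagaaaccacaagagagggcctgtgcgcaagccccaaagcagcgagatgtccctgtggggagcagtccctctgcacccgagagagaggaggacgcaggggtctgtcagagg
Atf3: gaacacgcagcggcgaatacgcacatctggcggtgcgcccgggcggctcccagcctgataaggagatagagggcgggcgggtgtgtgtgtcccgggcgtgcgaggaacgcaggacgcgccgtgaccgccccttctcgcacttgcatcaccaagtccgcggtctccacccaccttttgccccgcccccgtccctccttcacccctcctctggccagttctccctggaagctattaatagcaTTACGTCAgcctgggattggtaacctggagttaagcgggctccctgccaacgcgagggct

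Motifs were searched on both strands in the 9 members with an entry, Fosl1 being the other, and in all 32851 promoters of that length. The half-site TGACG was in 5 of the 9 members (Fos, Fosb, Junb, Batf and Atf3) and in 20.8% of all promoters. Fos holds it at 129 and 66 bases before the start, and Batf at 98 bases before it. The variant TGACATCA was in Jun alone of the 9, at 45 bases before the start, and in 3.62% of all promoters. The variant TTACGTCA, which overlaps a half-site on the other strand, was in Atf3 alone, at 10 bases before the start, and in 0.499% of all promoters. The AP-1 element TGANTCA (7.81% of all promoters), the full CRE TGACGTCA (1.79%) and the CArG box bound by SRF (1.63%) were in none of the 9. Bases more than 250 before or 50 after the start were not searched, so elements lying farther out would be missed. A match of letters is a description and does not show that a factor binds.

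In TLR against CpG libraries, the comparison that asks what the final 5 hours changed, 4 of 10 members were called higher (19.0% of all tested genes) and 0 lower (19.8% of all tested genes), beside 38.8% of all tested genes called in either direction. A gene was called where edgeR's quasi-likelihood adjusted p fell below 0.05. None was lower at an unadjusted p below 0.05 in edgeR, or by DESeq2 (0 members in each case). Set against naive libraries, TLR had 5 called higher and 2 lower, beside 31.6% and 29.7% of all tested genes and 61.2% in either direction. In CpG against naive libraries 2 were called higher and 4 lower, beside 23.5% and 21.9% of all tested genes and 45.5% in either direction. Fosl1 and Batf3 passed the filter through the group where they were highest, so their differences from that group are descriptions. Over the other 8 members, 3 were called higher and 0 lower in TLR against CpG, 4 and 2 in TLR against naive, and 2 and 3 in CpG against naive. The comparisons share libraries, so their calls are not independent.

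The groups did not overlap for 6 members higher (29.2% of all genes) and 1 lower (30.1%) in TLR against CpG, where 59.3% of all genes did not overlap in either direction. Between TLR and naive they did not overlap for 5 members higher (39.8%) and 2 lower (38.3%; 78.1% in either direction). Between CpG and naive they did not overlap for 2 higher (28.3%) and 4 lower (27.7%; 56.0% in either direction). Over the 8 members without Fosl1 and Batf3 these were 4 higher and 1 lower in TLR against CpG, 4 higher and 1 lower in TLR against naive, and 2 higher and 3 lower in CpG against naive. The median log2 fold change of those 8 was 1.28 in TLR against CpG, 0.67 in TLR against naive and 0.34 in CpG against naive, where the medians of all tested genes were -0.02, 0.01 and 0.01. Over all 10 members the fitted medians were 1.68, 0.67 and -0.30, and the sign in CpG against naive turned with Fosl1. With the CpG group set at 3 counts for Fosl1, the first was also 1.68. Without Fosl1 alone they were 1.54, 0.41 and 0.29.

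**Figure D2:**
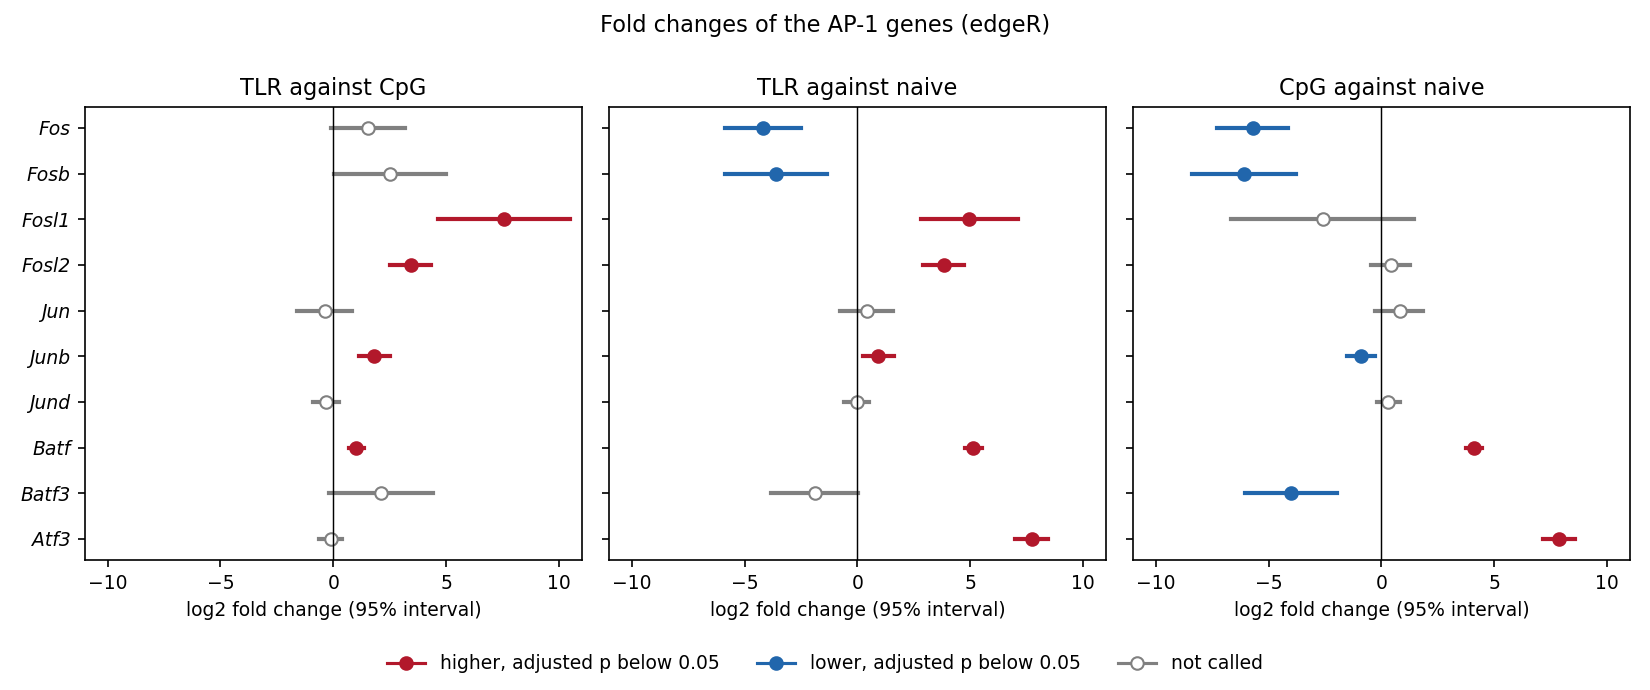
Log2 fold change of each AP-1 gene with its 95% interval from edgeR, in the 3 comparisons. Filled red and blue points were called higher or lower, and open grey points were not called. The value of Fosl1 rests on 0 counts in CpG and 2 in naive libraries and depends on the prior count.

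Among the Fos genes, Fos itself, the partner of Jun in the classic AP-1 pair, stood at 5.44 and 13.0 CPM in TLR replicates 1 and 2. It stood at 5.68, 1.23 and 2.84 CPM in CpG replicates 1 to 3, and at 187, 53.5 and 259 CPM in naive replicates 1 to 3. Every TLR and CpG library lay below every naive library. The log2 fold change was -4.17 ± 0.75 (SE) in TLR against naive (edgeR adjusted p = 9.35e-04) and -5.71 ± 0.70 in CpG against naive (adjusted p = 1.84e-04). Without TLR replicate 2 the first was -4.93, and without CpG replicate 1 the second was -6.35. Between TLR and CpG the libraries overlapped, with a log2 fold change of 1.54 ± 0.73 (adjusted p = 0.124; 95% interval -0.09 to 3.17). It was 0.77 without TLR replicate 2 and 2.19 without CpG replicate 1, and it was called without naive replicate 2 (adjusted p = 0.0475) and with no filter on low counts (0.0318). Within the RCa1 pair Fos stood at 5.44 CPM in TLR and 5.68 CPM in CpG, and within RCa18 at 13.0 CPM in TLR and a mean of 2.03 CPM in CpG.

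Fosb, a close relative of Fos, had 3.96 and 6.56 CPM in TLR, 0.967, 0.962 and 0.873 CPM in CpG, and 43.1, 6.31 and 143 CPM in naive replicates 1 to 3. The 3 CpG libraries were nearly equal, and the naive ones were far apart. Fosb fell by 6.09 ± 1.03 on the log2 scale in CpG against naive (edgeR adjusted p = 0.00116), with a log2 fold change of -4.72 without naive replicate 3. In TLR against naive it fell by 3.60 ± 1.01 (adjusted p = 0.0112), although TLR replicate 2 lay above naive replicate 2. That call was lost without TLR replicate 1 or 2 (adjusted p = 0.0819 and 0.0520) and with RCa1 libraries set aside (0.136). Without naive replicate 3 the value was -2.23. Both TLR libraries lay above all CpG libraries, at a log2 fold change of 2.49 ± 1.11 that was not called (adjusted p = 0.103). It was called when only those groups were fitted (adjusted p = 0.00160), with no filter (0.0206) and without naive replicate 2 or 3 (0.00699 and 0.0213).

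Fosl2 encodes FRA-2, a Fos protein without the strong activation domain of Fos. Its level was 28.0 and 22.0 CPM in TLR, 1.87, 2.24 and 2.84 CPM in CpG and 2.45, 0.751 and 2.09 CPM in naive libraries. It rose by 3.42 ± 0.40 in TLR against CpG (edgeR adjusted p = 1.48e-04) and by 3.82 ± 0.41 in TLR against naive (adjusted p = 3.09e-05). CpG and naive libraries overlapped, and their difference was not called (0.40 ± 0.38, adjusted p = 0.422).

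Fosl1 encodes FRA-1, the other Fos protein of that kind. It had 23 and 24 counts in TLR replicates 1 and 2, 0 in the 3 CpG libraries and 2 in the naive libraries, both in replicate 3. With the CpG group set at 3 counts in all, TLR was 22.2-fold higher than CpG, with no counting error allowed for the TLR counts. Against naive the ratio of the summed counts was 37.0. Since Fosl1 was tested only because of its counts in TLR, both ratios are descriptions and no p is given. Without naive replicate 3 the naive group had no count at all.

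Among the Jun genes, Junb, which many signals induce as an immediate early gene, had 778 and 596 CPM in TLR, 183, 210 and 191 CPM in CpG and 298, 230 and 554 CPM in naive libraries. The 3 groups did not overlap, with CpG lowest and TLR highest. Junb rose by 1.82 ± 0.31 in TLR against CpG (edgeR adjusted p = 0.00123), a call that held without any single library (adjusted p between 8.89e-05 and 0.0136). It fell by 0.89 ± 0.28 in CpG against naive (adjusted p = 0.0256). That call was lost without naive replicate 3 (adjusted p = 0.0720, log2 fold change -0.45), without CpG replicate 1, 2 or 3 (0.0681, 0.0515 and 0.0677) and with RCa1 libraries set aside (0.0853). In TLR against naive it rose by 0.93 ± 0.30 (adjusted p = 0.0230). That call was lost without naive replicate 1 or 2 (0.0718 and 0.0596), without TLR replicate 1 (0.146), with only those groups in the fit (0.0503) and with RCa1 libraries set aside (0.303). Exons of Prdx2 overlap Junb on the opposite strand, and counting ignored strand, so reads there cannot be told apart.

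Jun, the founding member of its branch, had 268 and 191 CPM in TLR, 230, 318 and 353 CPM in CpG and 107, 71.8 and 340 CPM in naive libraries. The TLR and CpG libraries overlapped, and both lay within the span of the naive ones apart from CpG replicate 3. Its log2 fold change was -0.39 ± 0.53 in TLR against CpG (edgeR adjusted p = 0.603), 0.41 ± 0.53 in TLR against naive (0.520) and 0.80 ± 0.48 in CpG against naive (0.200). Both differences from naive depended on the fit. Without naive replicate 3 Jun was higher in CpG by 1.74 (adjusted p = 9.62e-04) and in TLR by 1.35 (adjusted p = 0.00237). Exons of Junos overlap Jun on the opposite strand, with 8 to 30 counts per library.

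Jund, which in fibroblasts is present at rest and changes little on stimulation, had 372 and 452 CPM in TLR, 513, 532 and 504 CPM in CpG and 410, 275 and 579 CPM in naive libraries. Both TLR libraries lay below all CpG libraries, but the log2 fold change of -0.33 ± 0.26 was not called (edgeR adjusted p = 0.345; 95% interval -0.90 to 0.24). CpG libraries lay within the range of the naive ones (0.29 ± 0.23, adjusted p = 0.317). Without naive replicate 3 that difference was 0.59 and called (adjusted p = 0.0388).

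Batf encodes a short protein of little more than a leucine zipper, and in mice it is needed for antibody class switching. It had 549 and 430 CPM in TLR, 244, 209 and 272 CPM in CpG and 13.3, 14.1 and 14.7 CPM in naive libraries. The naive libraries were almost equal, and the 3 groups were far apart. Batf rose by 4.11 ± 0.15 in CpG against naive (edgeR adjusted p = 4.42e-07) and by a further 1.02 ± 0.15 in TLR against CpG (adjusted p = 5.37e-04). Against naive, TLR libraries were higher by 5.12 ± 0.17, or 34.9-fold (adjusted p = 1.21e-07). Without any single library the 3 values moved by less than 1.5 times, and every call held.

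Batf3 encodes a relative of BATF known for the cross-presenting dendritic cells that depend on it in mice. It had 7 and 15 counts in TLR, 0, 6 and 1 in CpG, and 81, 30 and 18 in naive libraries, and the 3 groups did not overlap on the CPM scale. It passed the low-count filter only with the naive libraries, so its fall against them is a description. It fell by 4.02 ± 0.91 in CpG against naive, and no p is given for its differences from naive. That value was -3.17 without naive replicate 1 and -5.94 without CpG replicate 2. TLR against naive gave -1.90 ± 0.87, and TLR against CpG 2.11 ± 1.03 (edgeR adjusted p = 0.136). Without CpG replicate 2 the difference from CpG was 4.04 and called (adjusted p = 0.0401). The difference of TLR from naive was -1.06 without naive replicate 1. Summed dendritic cell markers stood at 4.30 and 6.92 CPM in TLR, 12.2, 41.7 and 19.3 CPM in CpG and 67.8, 28.1 and 37.4 CPM in naive libraries, and 6 of the 8 fell in CpG against naive. Batf3 was highest in naive replicate 1, as were the sums of dendritic cells, macrophages, natural killer cells, and erythroid cells and platelets. Of naive replicates 2 and 3, Batf3 and the macrophage sum were higher in replicate 2. The dendritic, natural killer, and erythroid and platelet sums were higher in replicate 3. Among the dendritic markers, Clec10a had no count in CpG, and Clec9a, Siglech, Clec10a and Cd209a had none in TLR. The 2 without a called change in CpG against naive were Flt3 and Xcr1. Flt3 stood at 9.03, 38.7 and 13.7 CPM in CpG and 14.0, 8.11 and 7.36 CPM in naive libraries. Xcr1 stood at 1.74, 1.02 and 2.18 CPM in CpG and 0.990, 1.30 and 0.783 CPM in naive libraries. In TLR against CpG, Zbtb46 was called higher and Flt3 lower. The part of those cells in the fall of Batf3 was not tested.

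Atf3, a stress-induced factor that in mouse macrophages restrains cytokine genes switched on by Toll-like receptors, had the largest rise of the members with CpG. It stood at 175 and 125 CPM in TLR, 123, 178 and 191 CPM in CpG and 1.09, 0.501 and 0.522 CPM in naive libraries. TLR and CpG libraries overlapped and lay far above all naive ones. Atf3 rose by 7.85 ± 0.32, or 231-fold, in CpG against naive (edgeR adjusted p = 5.44e-07), which ranked 15 by fold change among the 13964 genes. Against naive, TLR libraries were higher by 7.73 ± 0.32 (adjusted p = 2.16e-07). Between TLR and CpG the log2 fold change was -0.12 ± 0.23 (adjusted p = 0.706; 95% interval -0.64 to 0.39). There the prefixes differed in direction, at 175 CPM in TLR and 123 CPM in CpG within RCa1, and at 125 CPM in TLR and a mean of 184 CPM in CpG within RCa18. With RCa1 libraries set aside, which leaves 1 TLR library, the log2 fold change of Atf3 was -0.56 in TLR against CpG. It was called lower in that fit, unlike in the fit of all 8 libraries.

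Levels can be compared between genes only per length, for which CPM was divided by the exon length of each gene in kilobases. Summed over the 10 members this gave 1124 and 963 CPM per kilobase in TLR, 693, 742 and 779 in CpG, and 508, 322 and 839 in naive libraries. The Jun genes made up 57.4% and 61.2% of that sum in TLR, 63.6% to 68.7% in CpG and 80.4% to 89.1% in naive libraries. The Fos genes made up 0.576% and 0.981% in TLR, 0.122% to 0.398% in CpG and 7.39% to 17.1% in naive libraries. Batf with Batf3 took 34.8% and 31.8% in TLR, 20.0% to 25.0% in CpG and 1.32% to 3.40% in naive libraries. Atf3 took 7.24% and 6.05% in TLR, 8.25% to 11.4% in CpG and 0.0289% to 0.0999% in naive libraries. None of these 4 shares overlapped between any pair of the 3 groups, but they add to 100% and so are not independent. The levels behind them could differ in another way. The Jun genes summed to 645 and 590 CPM per kilobase in TLR, 460, 510 and 496 in CpG, and 409, 287 and 695 in naive libraries. Atf3 per length overlapped between TLR (81.3 and 58.2) and CpG libraries (57.2, 82.5 and 88.5).

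**Figure D3:**
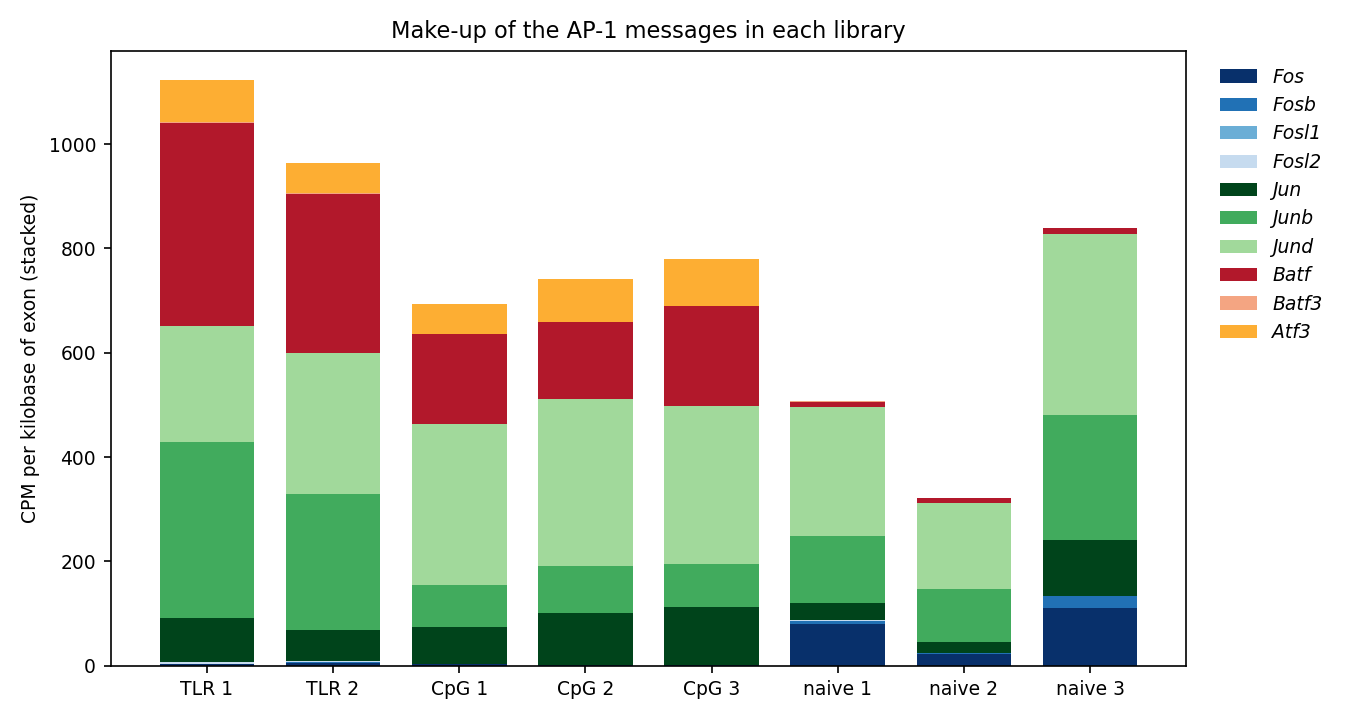
Summed level of the 10 AP-1 genes per library in CPM per kilobase of exon, stacked by gene, with TLR libraries first, then CpG, then naive. Batf and Atf3 fill a large part of the TLR and CpG bars and almost none of the naive ones, where Fos is visible.

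Per length, the order of the most abundant members differed by group. In TLR libraries Batf (348 CPM per kilobase on average), Junb (299) and Jund (247) came first, and the library ranges of Batf and Junb overlapped in these 2 libraries. In CpG libraries Jund led (310 ± 8.48 SD, n = 3), followed by Batf (172 ± 22.5), Jun (94.2 ± 19.8), Junb (84.5 ± 5.95) and Atf3 (76.1 ± 16.6), the last 3 within the spread of each other. In naive libraries Jund (253 ± 91.5), Junb (157 ± 74.2), Fos (70.9 ± 44.4) and Jun (54.2 ± 45.7) led. The ratio of Junb to Jund per length was 1.52 and 0.956 in TLR, 0.259 to 0.286 in CpG and 0.527 to 0.693 in naive libraries. The ratio of Batf to Fos per length was 169 and 55.5 in TLR, 71.9 to 284 in CpG and 0.0950 to 0.440 in naive libraries.

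The naive libraries differed among themselves in the same order for 5 members. Fos, Fosb, Jun, Junb and Jund were each lowest in naive replicate 2 and highest in replicate 3. Dusp1, a phosphatase gene that is itself an immediate early gene, followed that order at 48.5, 15.6 and 58.1 CPM in naive replicates 1 to 3. Of the 13 other immediate early genes listed, 4 did so (Egr1, Ier2, Nr4a1 and Nr4a2) and 9 did not, among them Ier5 at 421, 487 and 625 CPM and Myc at 76.9, 91.2 and 87.2 CPM. Batf did not, and Atf3 was highest in replicate 1. The summed markers of natural killer cells (88.8, 19.6 and 78.1 CPM) and of basophils and mast cells (6.41, 2.05 and 8.67 CPM) were also lowest in replicate 2. So were those of T cells (68.3, 58.8 and 82.8 CPM), neutrophils (1.72, 0.601 and 5.69 CPM), dendritic cells (67.8, 28.1 and 37.4 CPM) and erythroid cells and platelets (53.2, 5.06 and 12.8 CPM). The sums of T cells, neutrophils, and basophils and mast cells were also highest in replicate 3. The macrophage sum was lowest in replicate 3, where Fos was highest, and the B cell sum in replicate 1. All 10 natural killer markers fell in TLR and in CpG against naive, to sums of 1.36 and 1.70 CPM in TLR and 1.74 to 2.99 CPM in CpG, with Ncr1, Gzma, Gzmb and Itga2 at 0 in both. Summed heat shock genes were 415, 1069 and 1120 CPM in naive replicates 1 to 3. Replicate 1, with prefix RCa1, was also lowest in CpG (700, 1103 and 878 CPM) and in TLR (1365 and 2402 CPM). That order thus followed the prefix in every group. The part of other cells and of cell handling in the naive levels of Fos and Fosb was not tested.

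Lists of genes around AP-1 are given beside the shares of all tested genes called in either direction, 38.8% in TLR against CpG, 61.2% in TLR against naive and 45.5% in CpG against naive, and nothing is read from shares near these. Of 17 other transcription factors of the leucine zipper class tested, 5 rose and 2 fell in TLR against CpG, 8 rose and 5 fell in TLR against naive, and 4 rose and 4 fell in CpG against naive, or 41.2%, 76.5% and 47.1% called. Mafg, a small Maf protein, stood at 115 CPM in TLR and 57.2 CPM in CpG, and Atf4, the factor of amino acid and endoplasmic reticulum stress, at 1248 and 444 CPM (edgeR adjusted p = 2.99e-04 and 3.04e-04). Nfil3 averaged 44.1 ± 3.29 CPM in CpG and 1.69 ± 0.508 CPM in naive libraries (SD, n = 3 each; log2 fold change 4.71 ± 0.26), and Bach1, a repressor, 16.8 ± 0.790 and 45.9 ± 1.45 CPM (-1.45 ± 0.12). Jdp2, which pairs with Jun proteins, rose in all 3 comparisons, and its rise in TLR against CpG was lost without TLR replicate 1 (adjusted p = 0.171). Without TLR replicate 1 the rises in TLR against CpG numbered 3, without CpG replicate 3 they numbered 8, and without CpG replicate 2 the rises in CpG against naive numbered 7. The list medians were 0.33 in TLR against CpG, 0.35 in TLR against naive and 0.34 in CpG against naive, where those of all genes were near 0.

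The 5 partners at composite sites all changed in TLR against CpG (1 rose and 4 fell) and in CpG against naive (1 rose and 4 fell), and 3 fell in TLR against naive. The medians were -0.66, -0.72 and -1.08. Irf8 stood at 597 and 695 CPM in TLR, 1506, 1296 and 1411 CPM in CpG and 690, 707 and 733 CPM in naive libraries, so that it was highest with CpG alone. Irf4 had the reverse pattern, at 323 and 207 CPM in TLR, 73.4, 159 and 141 CPM in CpG and 296, 326 and 278 CPM in naive libraries. Irf4 rose by 1.09 ± 0.29 in TLR against CpG (edgeR adjusted p = 0.0143), a call lost without TLR replicate 1 (adjusted p = 0.152) and with RCa1 libraries set aside (0.0542). Nfatc1, Nfatc2 and Nfatc3, factors that calcium signals bring to the nucleus, fell in all 3 comparisons. Nfatc1 averaged 54.8 CPM in TLR, 193 CPM in CpG and 318 CPM in naive libraries. The falls of Nfatc2 and Nfatc3 in TLR against CpG and that of Nfatc3 in CpG against naive were lost without single libraries. For Nfatc2 these were naive replicate 2, CpG replicate 2 and TLR replicate 2 (adjusted p up to 0.203). For Nfatc3 they were TLR replicate 1 or 2 in TLR against CpG (up to 0.0719), and any library but naive replicate 1 and CpG replicate 3 in CpG against naive (up to 0.134).

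Of 24 tested kinases and kinase regulators upstream of AP-1, 3 rose and 8 fell in TLR against CpG, 4 rose and 10 fell in TLR against naive, and 5 rose and 9 fell in CpG against naive, or 45.8%, 58.3% and 58.3% called. The medians were -0.05, -0.24 and -0.04. Without TLR replicate 1 the rises numbered 1 in TLR against CpG and 2 in TLR against naive. Mapk3, which encodes the kinase ERK1, rose in all 3 and averaged 233 CPM in TLR, 130 CPM in CpG and 55.4 CPM in naive libraries. Rasgrp3, an activator of Ras in B cells, averaged 41.8 CPM in TLR and 315 CPM in CpG libraries (log2 fold change -2.91 ± 0.22, edgeR adjusted p = 1.51e-05). Prkca, a protein kinase C gene, averaged 31.7 CPM in TLR, 136 CPM in CpG and 39.1 CPM in naive libraries.

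Among 8 factors known to act on Fos and Jun promoters, 2 rose and 4 fell in TLR against CpG, 4 rose and 4 fell in TLR against naive, and 3 rose and 4 fell in CpG against naive, with 6, 8 and 7 of the 8 called. Srf, the serum response factor, averaged 192 ± 12.4 CPM in TLR (n = 2) and 106 ± 6.57 CPM in CpG libraries (n = 3), and its partner gene Elk3 260 ± 31.9 and 104 ± 9.46 CPM (edgeR adjusted p = 2.90e-04 and 4.68e-05). Mef2c, Mef2d, Elk4 and Mrtfa fell in all 3 comparisons, but the fall of Mrtfa in CpG against naive was lost without any naive library or without CpG replicate 2 or 3 (adjusted p between 0.0548 and 0.113). Without naive replicate 1 the rises in CpG against naive numbered 1, and without naive replicate 2 or 3 they numbered 2. The list medians were -0.45, -0.33 and -0.30.

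Of 12 tested brakes on AP-1 signalling and messages, 4 rose and 1 fell in TLR against CpG, 4 rose and 7 fell in TLR against naive, and 3 rose and 6 fell in CpG against naive, or 41.7%, 91.7% and 75% called. The medians were 0.25, -0.48 and -0.61. The 1 fall in TLR against CpG, of Men1, was lost without CpG replicate 2, TLR replicate 1 or TLR replicate 2 (edgeR adjusted p between 0.0641 and 0.173). The phosphatase genes Dusp4 and Dusp5 averaged 257 and 76.5 CPM in TLR and 43.6 and 14.0 CPM in CpG libraries (edgeR adjusted p = 4.75e-05 and 2.01e-04). Zfp36l2, which encodes a protein that destabilises messages, averaged 61.8 ± 7.43 CPM in CpG and 456 ± 177 CPM in naive libraries (SD, n = 3 each), while Dusp10, a phosphatase for JNK and p38, averaged 135 ± 23.9 and 28.0 ± 5.63 CPM.

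Of 13 other immediate early genes, 6 rose and 2 fell in TLR against CpG (median 1.50), 7 rose and 5 fell in TLR against naive (0.97), and 2 rose and 5 fell in CpG against naive (-0.31), or 61.5%, 92.3% and 53.8% called. Nr4a1, a nuclear receptor gene, stood at 202 and 167 CPM in TLR, 44.2, 63.4 and 43.9 CPM in CpG and 62.0, 55.1 and 69.7 CPM in naive libraries. Btg2, a gene that slows division, fell by 2.35 ± 0.15 in TLR against CpG (edgeR adjusted p = 7.21e-06). Klf6 and Ier5 fell by 1.72 ± 0.10 and 1.97 ± 0.15 in CpG against naive. The 2 rises in that comparison, of Egr2 and Myc, were both lost without naive replicate 1 or CpG replicate 3, and that of Egr2 also without naive replicate 3 or CpG replicate 2 (edgeR adjusted p between 0.0525 and 0.0945).

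Of 14 tested genes reported as AP-1 targets, 6 rose and 2 fell in TLR against CpG (median 0.45), 7 rose and 5 fell in TLR against naive (0.70), and 6 rose and 5 fell in CpG against naive (0.24), or 57.1%, 85.7% and 78.6% called. Without TLR replicate 1 the rises in TLR against CpG numbered 3, and without naive replicate 1 or TLR replicate 2 the falls in TLR against naive numbered 3. Il10, the cytokine gene of regulatory B cells, stood at 639 and 653 CPM in TLR, 41.8, 51.5 and 58.9 CPM in CpG and 0.938, 0.200 and 0.261 CPM in naive libraries. Tnf, an inflammatory cytokine gene, averaged 47.8 CPM in TLR and 6.87 CPM in CpG libraries (log2 fold change 2.80 ± 0.17, edgeR adjusted p = 6.02e-06). Plaur, the urokinase receptor gene, averaged 4.53 ± 1.51 CPM in CpG and 92.2 ± 6.19 CPM in naive libraries (SD, n = 3 each; -4.34 ± 0.22). Of 7 heat shock genes, 2 rose in TLR against CpG (Hsp90aa1 and Hspd1), 3 rose in TLR against naive and 1, Hspa1b, fell in CpG against naive, with medians of 1.01, 0.94 and -0.21. The Hspa1b call was lost without any library but naive replicate 1 and TLR replicate 1 (edgeR adjusted p up to 0.139). The Hsp90aa1 call in TLR against CpG was lost without CpG replicate 1, CpG replicate 3 or TLR replicate 2 (up to 0.317). Without TLR replicate 2, 1 heat shock gene was called higher in TLR against naive. Without naive replicate 1, 4 rose in TLR against CpG, 2 rose and 2 fell in TLR against naive (Hspa1b at -2.97, adjusted p = 0.00134), and 3 fell in CpG against naive.

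Genes whose log2(CPM + 1) over the 8 libraries was most like that of a member were picked by Pearson's r among 8982 other genes that averaged 8 CPM or more. These are descriptions, since the 8 libraries form only 3 groups that such a value follows. Fos was most like Trib2 (r = 0.979) and Pex6 (0.976), and Fosb most like Dusp1 (0.946) and Fos (0.937). Batf was most like Il6 (0.998), at 108 and 65.4 CPM in TLR, 37.8, 25.3 and 53.0 CPM in CpG and 0 to 0.156 CPM in naive libraries, and Nphp4 (0.998). Atf3 was most like Ankrd33b and Lactb2 (0.999 each). Junb was most like Polb (0.960) and Ier2 (0.955), Jun like Pdcd10 (0.884) and Fam204a (0.853), and Jund like Jun (0.822) and Fam204a (0.810). Fosl1, Fosl2 and Batf3 averaged under 8 CPM and were not compared.

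**Figure D4:**
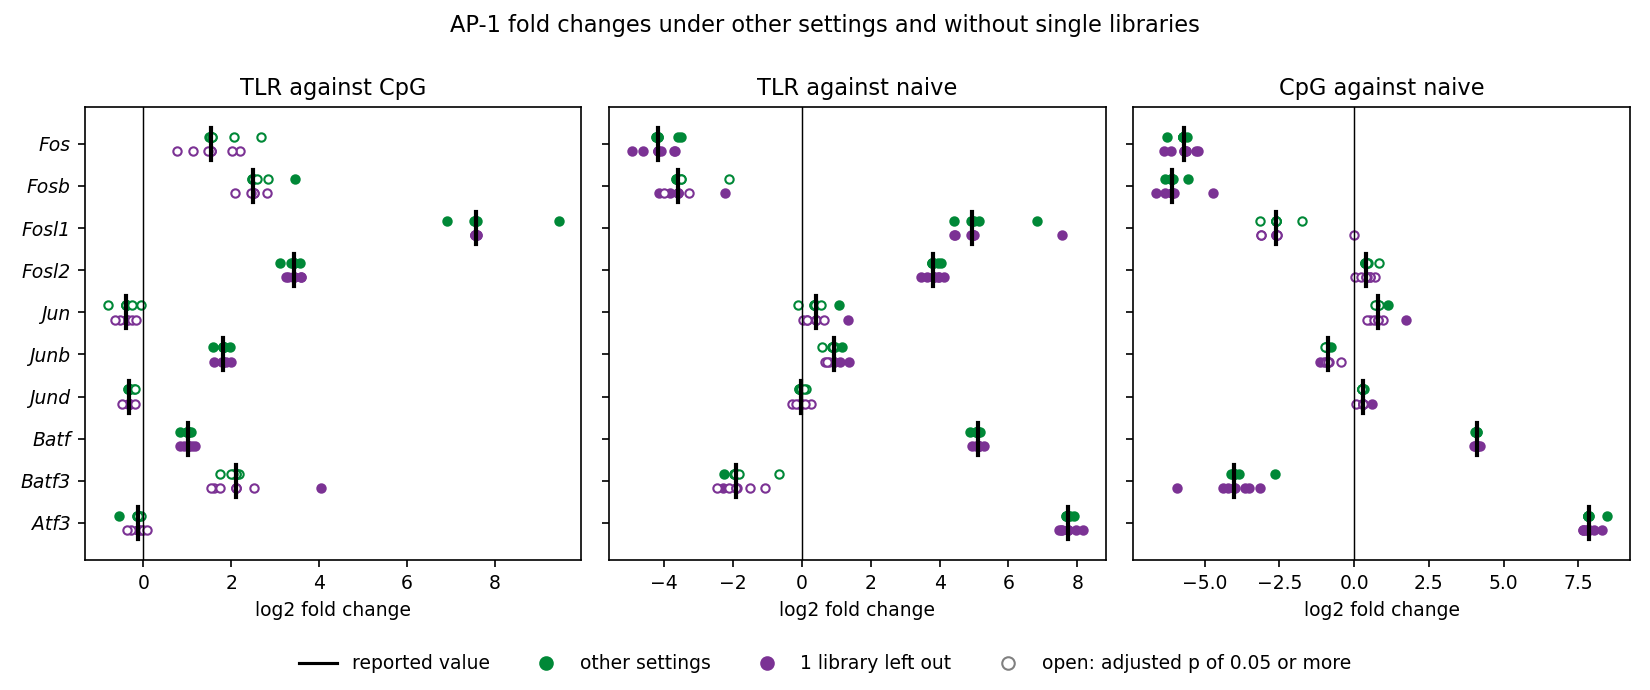
Log2 fold change of each AP-1 gene in the 3 comparisons as reported (black line), under other settings (green) and with 1 library left out (purple), where open points have an adjusted p of 0.05 or more. The values of Batf and Atf3 against naive lie close together, while those of Jun in CpG against naive run up to 1.74 without naive replicate 3.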

How the data were processed

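The deposited values are raw read counts per Ensembl gene, 1 file per library, as the authors left them. The submitters' processing notes name STAR, HTSeq, edgeR and build mm9, with neither versions nor the role of each. The sources used here do not give the annotation release. Libraries were polyA-selected and strand-specific per the labels' protocols, while the file names say that counting ignored strand. Reads in no gene (7.84% to 15.0% of the summed counts), ambiguous reads (1.29% to 2.15%) and reads aligned to several places (14.7% to 50.2%, higher in RCa1 than in RCa18 libraries) are summary lines and were set apart from the genes. Symbols came from GENCODE M21 by identifier (32860 of 37583 matched). In that annotation exons of Jun overlap Junos, those of Junb Prdx2, those of Jund Gm11175 and those of Fosl1 Ccdc85b, all on the opposite strand, so reads there cannot be told apart. Junos had 8 to 30 counts per library and Prdx2 1174 to 2912. Exon lengths are unions of all transcripts in GENCODE M21 (GRCm38), not mm9.

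Counts were fitted in R 4.3.3 with edgeR 4.0.16: filterByExpr (13964 genes), TMM factors, and the quasi-likelihood test on 8 libraries, 1 coefficient per group. Genes were called at a Benjamini-Hochberg adjusted p below 0.05 over all tested genes. Fold changes were shrunk with prior count 0.125, and each SE was taken as log2 fold change divided by the root of F. The Fosl1 ratio with 3 counts set for CpG allows for counting error in the CpG group alone. A single count was worth 0.0498 to 0.0633 CPM. Replicates of a group differed by more than sampling noise (chi-square per degree of freedom of 11.3 or more). Tested on simulated data, 89 of 97 genes changed 4-fold were recovered in CpG against naive, 83 of 97 in TLR against CpG and 86 of 98 in TLR against naive. Of genes changed 2-fold, 57 of 97, 56 of 95 and 51 of 95 were recovered in the same comparisons, so changes of about that size were often missed in the simulation. It changed 200 genes, while 38.8% to 61.2% of tested genes were called in these data. Its recovery therefore need not hold for them.

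The members and lists were chosen with earlier results of these data known. Named were all 10 members, and from each list called genes with the smallest p and a mean of at least 1 CPM. Levels per library of Irf4, Irf8, Nr4a1, Il10, Il6, Dusp1 and Ier2, and the genes said to follow one direction in all 3 comparisons, were chosen after their values were seen. Atf7 was not matched by symbol, and its level is not reported here. The alternatives tried were each library left out in turn, a block for replicate number, a term for the prefix, the RCa18 libraries by themselves, a fit of the compared pair of groups, DESeq2 1.42.0, scaling by RLE or by library size, and a low-count filter that was dropped or set at 1 CPM on average. Those of the context lists were added after seeing the data. Replicate numbers were not treated as pairs.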

Additional observations from a re-analysis of the deposited data

How the results depend on the processing

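Counts of members called kept within 1.5 times of those reported with DESeq2, with RLE or library-size scaling, with the low-count filter dropped or set at 1 CPM, with pairs of groups fitted apart, and with the block or the prefix term. With only prefix RCa18, 1 TLR library was left, so the numbers called in comparisons with TLR are not given. In that fit Atf3 gained a call as lower in TLR against CpG (log2 fold change -0.56). Fosb (-3.51) and Junb (0.60) lost their calls in TLR against naive. These gains and losses rest on 1 TLR library. With 1 library left out, the members called in CpG against naive were 2 to 4 higher and 3 to 4 lower, in TLR against CpG 4 to 6 higher and 0 lower, and in TLR against naive 4 to 6 higher and 1 to 3 lower. All genes called were then 4888 to 6738 in CpG against naive, 3516 to 5625 in TLR against CpG (3516 without TLR replicate 1) and 6990 to 9071 in TLR against naive. No called value of a member changed sign. Of 265 values of members under other settings 9 gained and 5 lost a call, and of 240 with a library left out 8 gained and 9 lost one. The cause was not tested. With 1 TLR library left, that library is assumed to vary like the others. Fosl1 gave no value with the 1 CPM filter or between CpG and naive alone, nor Batf3 between TLR and CpG alone.

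The labels do not pair the libraries by number. Deviations from the group means of same-numbered CpG and naive libraries correlated at 0.16, 0.104 and 0.004. Those of CpG and TLR correlated at 0.325 and 0.297, with only 2 pairs, which are also the 2 prefixes, and those of naive and TLR at 0.127 and 0.025. Since 0.1 was not passed by every pair, the numbers were not taken as pairs, and naive replicate 3 correlated better with CpG replicate 2 (0.147). With the replicate block, 5 members were called higher and 0 lower in TLR against CpG, 6 higher and 2 lower in TLR against naive, and 3 higher and 4 lower in CpG against naive. All genes called, in the same order of comparisons, were 5541, 8602 and 6665. Under the block Jun was called higher against naive in CpG (1.12, edgeR adjusted p = 0.0236) and in TLR (1.07, 0.0397). Fosb was called in TLR against CpG (0.0220) and not in TLR against naive (-2.13, 0.0579). Batf3 was counted as lower in TLR against naive, which is a description, since it passed the filter only with the naive libraries. Levels near a single count (0.0498 to 0.0633 CPM) limit Fosl1 and Batf3.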
